A study of Mus musculus with 6 samples.

Results

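The G1 and S phase cyclins and kinases described here are 10 genes, namely the D-type cyclins Ccnd1, Ccnd2 and Ccnd3, their kinases Cdk4 and Cdk6, the E-type cyclins Ccne1 and Ccne2, cyclin A2 (Ccna2), Cdk2 and the phosphatase Cdc25a. They were chosen by name, with earlier results of these data known, out of 23896 genes with a symbol among the counted RefSeq transcripts. Each gene was followed through its transcript with the highest mean count. The libraries are mRNA-seq of MEL cells, a mouse erythroleukemia line held at an early erythroid stage that matures toward red cells when DMSO is added. Cells in log-phase suspension culture were given 2% DMSO and collected at day 0 (uninduced), day 2 and day 4, with 2 biological replicates per day and 6 libraries in all. No genotype, drug or selection other than DMSO separates the days, and every library comes from the same transformed line, so the uninduced cells are a leukemic and not a normal erythroid progenitor.

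D-type cyclins bind Cdk4 and Cdk6 in G1 and start the phosphorylation of the retinoblastoma protein, which releases E2F transcription factors. E2F then raises the E-type cyclins and cyclin A2, which activate Cdk2 to fire replication origins, and Cdc25a removes the inhibitory phosphates from Cdk2. In erythroid maturation the last divisions are coupled to the start of globin synthesis and are followed by cell cycle exit.

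The libraries held 35294930 to 53899476 counts on transcripts, and TMM factors (edgeR's scaling between libraries) ranged from 0.921 to 1.07. Reads that fell on no feature made up 50.5% to 54.1% of the sum of these reads and the transcript counts at days 0 and 2 and 58.1% and 58.4% at day 4, a sum in which a read can count once for each transcript of a gene. All 10 erythroid marker genes on the list were counted in every library, and their summed level was 1170 to 1218 CPM (counts scaled to the library total) at day 0, 4451 to 5277 CPM at day 2 and 17893 to 20083 CPM by day 4. Most of the day 4 sum was Hba-a1 (9794 and 11461 CPM) and Hbb-bs (4970 and 5102 CPM). Klf1 alone of the list was lower at day 4 (173 and 171 CPM) than at day 0 (192 and 309 CPM). Summed levels stayed at or below 1.54 CPM for the myeloid markers (Ly6g was not among the counted genes) and 3.36 CPM for 4 stromal markers, with Mpo, Cd3e of T cells and Col1a2 at or near 0. The 5 megakaryocyte and mast cell markers summed to 270.1 to 273.8 CPM at day 0, 211 to 233 CPM at day 2 and 543 to 618 CPM by day 4, most of it Itga2b, while Pf4 went from 57.4 and 42.7 CPM at day 0 down to 10.2 and 8.93 CPM. Their part in the changes below was not tested.

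Of the 10 genes, 9 passed the filter on low counts. From day 0 to day 2, 7 of these 9 fell and 1 rose at an adjusted p below 0.05 (edgeR quasi-likelihood test, Benjamini-Hochberg adjustment over all transcripts kept), and only Cdk2 was not called. The background was high, as 62.5% of 12381 tested genes were called in this comparison, 31.5% lower and 31.0% higher. Their median change was -0.73 on the log2 scale, beside 0.0093 over all tested genes. From day 2 to day 4 fewer moved, with Ccnd2 and Ccnd3 higher and Ccne2 and Ccna2 lower, 4 of 9 where 30.3% of all genes were called (14.0% higher, 16.2% lower). Over the whole course 6 of 9 fell and Ccnd2 alone rose, with a median of -1.04 beside -0.017 over all genes, of which 71.8% were called (36.4% lower, 35.5% higher). Scaling by total counts put the median of all genes at 0.21 for day 2 against day 0 and at 0.10 for day 4 against day 0. With that scaling the split for day 4 against day 0 was 6 lower and 2 higher, as Ccnd3 was then called higher. Among changes of 1 or more on the log2 scale, 2 of 9 were called for the first step (23.2% of all genes), 1 for the second (5.94%) and 6 over the course (35.6%). All 6 values per gene are drawn in the plot of CPM by library. In bulk RNA, fewer cells in a phase and less RNA per cell cannot be told apart, and the p-values measure only the spread between these cultures. CPM are relative to each library, so a higher level or sum need not be more transcript per cell.

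**Figure D1:**
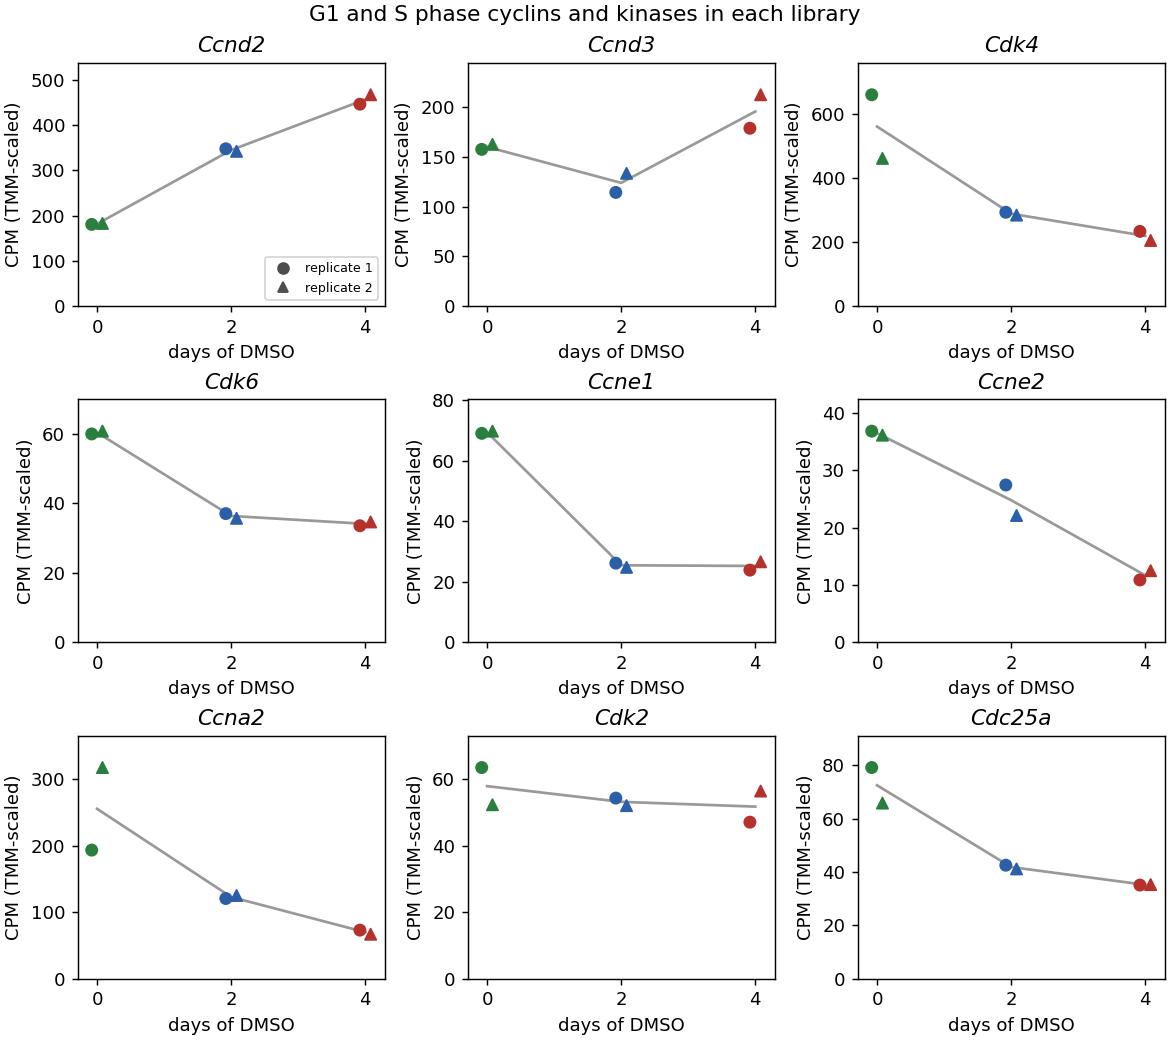
TMM-scaled CPM (y axis, from 0) of the 9 counted genes against days of DMSO (x axis), with 1 point per library, circles for replicate 1, triangles for replicate 2 and a line through the means of 2 libraries. Ccnd2 sits higher at each later day, Ccnd3 dips at day 2, Cdk2 overlaps across days and the other 6 genes lie lower at day 2 than at day 0.

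Ccnd2 was the gene of this group that rose at both steps. Cyclin D2 is one of the G1 cyclins through which growth factor signals reach Cdk4 and Cdk6. Its transcript (NM_009829, 5 exons, chromosome 6 from 127125162 to 127152188 of GRCm38, minus strand) had 180 and 183 CPM at day 0, 348 and 342 CPM at day 2, and 447 and 468 CPM at day 4. The replicates lay within 5% of each other on every day and no library overlapped between days. The level was 1.90-fold higher at day 2 than at day 0 (log2 fold change 0.93 with a standard error, SE, of 0.11, edgeR adjusted p = 3.31e-05) and 2.52-fold higher at day 4 (1.33, SE 0.11, edgeR adjusted p = 1.27e-06). The second step was smaller, with a log2 fold change of 0.41 (SE 0.11, edgeR adjusted p = 0.0169). That call was lost when any 1 of the day 2 or day 4 libraries was left out, at log2 fold changes of 0.37 to 0.44 (edgeR adjusted p from 0.0594 to 0.143). The second step minus the first was -0.52 (SE 0.19, edgeR adjusted p = 0.0555), which passed the threshold in DESeq2 (-0.49), with total counts (-0.80) and without either day 0 library (-0.52 and -0.53). Both steps were called higher in 8.33% of all tested genes.

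Ccnd3 fell and then rose. Cyclin D3 is the D-type cyclin whose loss in mice lowers the number of divisions of erythroid precursors. Its transcript (NM_001081636, 7 exons, chromosome 17 from 47505051 to 47599689, plus strand) had 158 and 163 CPM at day 0, 114 and 134 CPM at day 2, and 179 and 213 CPM at day 4. Both day 2 libraries lay below every other library and both day 4 libraries above. The log2 fold change was -0.37 from day 0 to day 2 (SE 0.12, edgeR adjusted p = 0.0226) and 0.66 from day 2 to day 4 (SE 0.12, edgeR adjusted p = 0.00321). The second step differed from the first by 1.03 on the log2 scale (SE 0.22, edgeR adjusted p = 0.00635), where 30.0% of all genes were called. All 3 of these calls were lost without day 2 replicate 1, the lowest library, at -0.26 for the first step, 0.55 for the second and 0.81 for their difference. Total counts also ended the call of the first step, at -0.17. Between day 0 and day 4 the change was 0.29 on the log2 scale (SE 0.12, edgeR adjusted p = 0.0544), and it passed the threshold with total counts (0.40), without the filter (0.29), with 1 transcript per gene (0.30) and without day 0 replicate 2 (0.30) or day 4 replicate 1 (0.41).

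Ccnd1, the D-type cyclin of many epithelial and fibroblast lines, was not counted at all. Its transcript (NM_007631, chromosome 7 from 144929931 to 144939831, minus strand) had 0 counts in each of the 6 libraries. A count of 0 allows up to 3 counts per library, or 0.0604 to 0.0831 CPM depending on the library. On the opposite strand LTO1 covers 29.4% of the exon bases of Ccnd1 and had 538 to 1121 counts per library, so reads of that neighbour were not assigned to Ccnd1. No fold change or test was possible for this gene.

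Set per kilobase of transcript, the D-type pool changed in makeup. Ccnd3 made up 72.4% and 72.7% of the summed D-type level at day 0, 49.6% and 53.9% at day 2, and 54.6% and 57.7% at day 4. The day 0 libraries therefore lay apart from those of days 2 and 4. The share did not return to its day 0 value by day 4, although the Ccnd3 level then lay above both day 0 libraries. Their sum was 103 and 106 CPM per kb at day 0, 109 and 117 at day 2, and 155 and 175 at day 4. The share depends on transcript length, since Ccnd2 is counted over 6330 bases and Ccnd3 over 2113. Without division by length the mean Ccnd3 share was 46.9%, 26.4% and 29.9% on the 3 days, with the same order of days. These shares are a description, without a test.

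**Figure D2:**
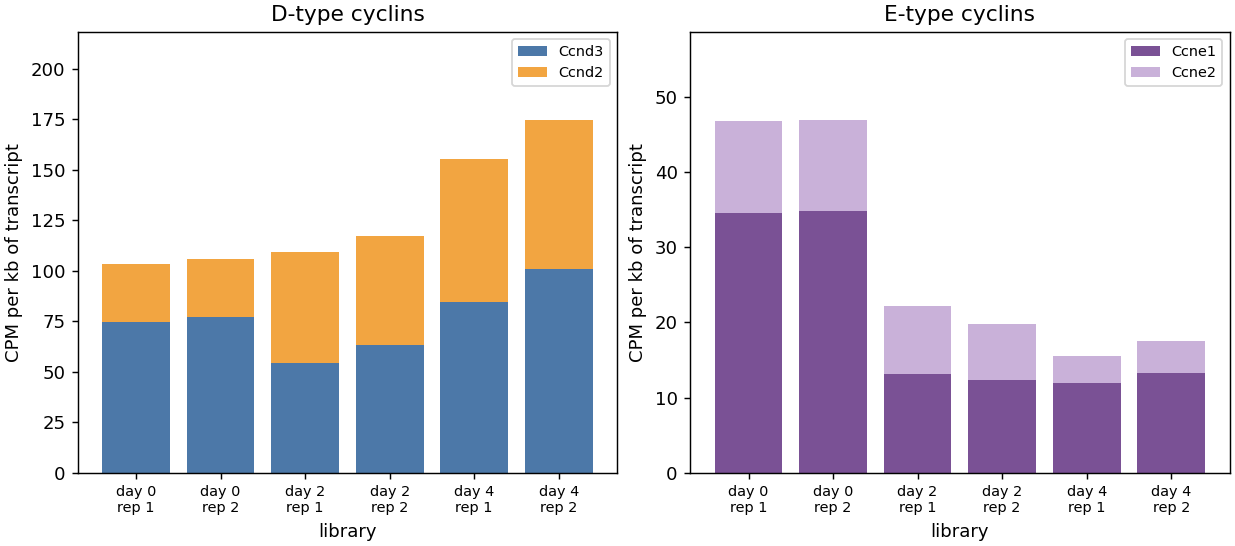
Stacked CPM per kb of transcript (y axis, from 0) in each of the 6 libraries (x axis) for the D-type cyclins Ccnd3 and Ccnd2 (left) and the E-type cyclins Ccne1 and Ccne2 (right). The D-type sum is 155 and 175 at day 4 against 103 and 106 at day 0, while the E-type sum is 15.6 and 17.5 against 46.8 and 46.9.

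Cdk4 was the most abundant of the 10 per kilobase at days 0 and 2, and it fell. Cdk4 is a kinase partner of the D-type cyclins. Its promoter stands out among those searched for short motifs, because the 250 bases before its start hold 4 copies of the E-box CACGTG, a site that Myc, Max and Usf proteins can bind. The stretch is printed here to show their spacing, from RefSeq on GRCm38.p6 at chr10:127063285-127063533, plus strand, with the E-boxes in capitals.
Cdk4 promoter: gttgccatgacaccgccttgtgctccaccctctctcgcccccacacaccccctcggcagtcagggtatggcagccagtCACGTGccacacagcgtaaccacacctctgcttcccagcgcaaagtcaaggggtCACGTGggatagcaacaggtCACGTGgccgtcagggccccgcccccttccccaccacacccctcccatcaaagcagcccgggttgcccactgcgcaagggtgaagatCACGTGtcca
The copies start 172, 118, 98 and 11 bases before the transcript start. At least 1 CACGTG occurs in 6.02% of 32851 promoters of that length and 4 or more occur in 0.0213%, which is 7 promoters. A match describes the letters and shows no binding.

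The Cdk4 transcript (NM_009870, 8 exons, chromosome 10 from 127063535 to 127067288, plus strand) had 662 and 462 CPM at day 0, 293 and 284 CPM at day 2, and 234 and 205 CPM at day 4. No library overlapped between days, although the day 0 replicates differed 1.43-fold. Its log2 fold change was -0.96 at the first step (SE 0.16, edgeR adjusted p = 0.000391) and -1.36 over the course (SE 0.16, edgeR adjusted p = 2.00e-05), the latter a 2.56-fold lower level. Leaving out 1 library at a time kept both calls, with log2 fold changes of -1.20 to -0.68 and -1.61 to -1.08. The second step, at -0.40 (SE 0.16, edgeR adjusted p = 0.0822), was not called. It was called in DESeq2 (-0.39), with total counts (-0.48), without the filter (-0.40), from the libraries of days 2 and 4 alone (-0.40) and without either day 0 library (-0.40). The second step minus the first was 0.56 and not called (SE 0.28, edgeR adjusted p = 0.153), but it was called at 0.80 without day 0 replicate 2.

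Cdk6, the other kinase of the D-type cyclins, fell early and then held. Its transcript (NM_009873, 8 exons, chromosome 5 from 3341004 to 3531008, plus strand) had 60.0 and 60.8 CPM at day 0, 37.1 and 35.7 CPM at day 2, and 33.6 and 34.7 CPM at day 4. Replicates were close, and the day 4 libraries lay just below those of day 2. The log2 fold change was -0.73 at the first step (SE 0.10, edgeR adjusted p = 0.000119), -0.09 at the second step (SE 0.10, edgeR adjusted p = 0.531) and -0.82 over the course. The steps differed by 0.64 (SE 0.18, edgeR adjusted p = 0.0228), a call that was lost with total counts (0.36) and without any 1 of the day 2 or day 4 libraries (0.58 to 0.69). At 11525 bases the Cdk6 transcript is the longest of the group, and per kilobase it was the lowest of the 9 on each day. The Cdk4 level per kilobase was 61.9 and 42.7 times that of Cdk6 at day 0, 44.4 and 44.7 times at day 2, and 39.1 and 33.2 times at day 4.

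The balance of Cdk4 against its cyclins, given without a test, shifted over the course. Its level per kilobase was 3.12 and 2.13 times the D-type sum at day 0, 1.31 and 1.18 times at day 2, and 0.732 and 0.572 times at day 4. The libraries of the 3 days did not overlap in this ratio, which is independent of the scaling between libraries.

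Ccne1 had the largest fall of the group in the first step and no called change after it. Cyclin E1 is an E2F target that activates Cdk2 at the G1 to S transition. Its transcript (NM_007633, 12 exons, chromosome 7 from 38097984 to 38107490, minus strand) had 69.1 and 69.8 CPM at day 0, 26.2 and 24.8 CPM at day 2, and 23.9 and 26.6 CPM at day 4. The day 0 libraries stood well above the rest, and those of days 2 and 4 overlapped. The level was 2.73-fold lower at day 2 than at day 0 (log2 fold change -1.45, SE 0.11, edgeR adjusted p = 1.84e-06). From day 2 to day 4 the log2 fold change was -0.012 (SE 0.11, edgeR adjusted p = 0.947), and the steps differed by 1.44 (SE 0.20, edgeR adjusted p = 0.000644). That difference was called without each library in turn, at 1.35 to 1.51.

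Ccne2, which encodes the closely related cyclin E2, fell at both steps. Its transcript (NM_001037134, 12 exons, chromosome 4 from 11190433 to 11204779, plus strand) had 36.9 and 36.2 CPM at day 0, 27.5 and 22.1 CPM at day 2, and 10.9 and 12.5 CPM at day 4. No library overlapped between days. The log2 fold change was -0.56 for the first step (SE 0.13, edgeR adjusted p = 0.00392), -1.08 for the second (SE 0.14, edgeR adjusted p = 0.000488) and -1.64 over the course, a 3.12-fold lower level. Without day 2 replicate 2 the first step was -0.41 and not called. The steps of Ccne2 itself were not shown to differ, at -0.52 (SE 0.23, edgeR adjusted p = 0.114), though that value was called with total counts (-0.80).

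The ratio of the E-type cyclins, also without a test, was lowest at day 2. Per kilobase the Ccne1 level was 2.82 and 2.90 times that of Ccne2 at day 0, 1.43 and 1.68 times at day 2, and 3.30 and 3.20 times at day 4. The 3 days did not overlap in this ratio, and day 2 held the low values. Their sum was 46.8 and 46.9 CPM per kb at day 0, 22.2 and 19.8 at day 2, and 15.6 and 17.5 at day 4.

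Ccna2 had the largest fall of the 9 over the whole course. Cyclin A2 partners Cdk2 in S phase and Cdk1 later. Its transcript (NM_009828, 8 exons, chromosome 3 from 36564865 to 36573038, minus strand) had 193 and 317 CPM at day 0, 121 and 125 CPM at day 2, and 73.0 and 66.8 CPM at day 4. The day 0 replicates differed 1.64-fold, the widest gap of any member on any day, but each day still lay apart from the next. The log2 fold change was -1.06 at the first step (SE 0.19, edgeR adjusted p = 0.000550), -0.81 at the second step (SE 0.19, edgeR adjusted p = 0.00842) and -1.87 over the course (SE 0.19, edgeR adjusted p = 5.98e-06), which is 3.65-fold lower. Leaving out 1 library at a time gave -1.37 to -0.66 for the first step and -2.19 to -1.48 for the course, all called. The second step was not called without day 2 replicate 1 (-0.84), day 2 replicate 2 (-0.79) or day 4 replicate 2 (-0.75). Whether the steps differed rested on the day 0 libraries, as the value was 0.24 with all (SE 0.32, edgeR adjusted p = 0.599), 0.55 and called without day 0 replicate 1, and -0.15 without day 0 replicate 2. Ccne2 and Ccna2 were the 2 of 9 genes called lower in both steps, which held for 9.05% of all tested genes.

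Cdk2, the kinase that both cyclin classes activate, was not called in any comparison. Its promoter carries 2 matches to E2F letters (TTGGCGC or TTCCCGC on either strand, with 1 or more in 5.62% of promoters and 2 or more in 0.393%), and the short stretches around both are shown because the level of this gene moved least. They lie on the minus strand of GRCm38.p6 (RefSeq) at chr10:128705173-128705202 and chr10:128705052-128705080, with the matches, which start 140 and 10 bases before the transcript start, in capitals.
Cdk2 distal match: aaccaggaactGCGGGAAagttgtgcagct
Cdk2 proximal match: ggggcggggccagggaaacGCGGGAAgga
The Cdk2 transcript (NM_183417, 8 exons, chromosome 10 from 128697938 to 128705051, minus strand) had 63.5 and 52.3 CPM at day 0, 54.3 and 52.1 CPM at day 2, and 47.1 and 56.5 CPM at day 4. The libraries of all days overlapped. From day 0 to day 4 it changed by -0.16 on the log2 scale (SE 0.13, edgeR adjusted p = 0.277), and -0.12 and -0.04 for the single steps. A p that misses the threshold does not show that the level was constant, and without day 0 replicate 2 the value over the course was -0.31 and called. Set against its cyclins without a test, the Cdk2 level per kilobase was 0.236 and 0.141 times the sum of Ccne1, Ccne2 and Ccna2 at day 0, 0.359 and 0.350 times at day 2, and 0.487 and 0.586 times at day 4.

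Cdc25a, the phosphatase that activates Cdk2, fell at the first step. Its promoter holds 2 E2F matches on opposite strands that overlap by 4 bases, and the 30 bases around them are shown to set beside those of Cdk2, from RefSeq on GRCm38.p6 at chr9:109875504-109875533, plus strand.
Cdc25a E2F matches: gaattccgtTTGGCGCCAActaggaaaggg
The capitals start 66 bases before the start in the promoter table (109875579), and 2 CCAAT boxes, a motif with 1 or more copies in 33.8% of promoters and 2 or more in 10.1%, start 131 and 81 bases before it. That start lies 61 bases downstream of the start of the counted transcript, which falls within the printed stretch. The transcript (NM_007658, 15 exons, chromosome 9 from 109875518 to 109893895, plus strand) had 79.1 and 65.8 CPM at day 0, 42.5 and 41.1 CPM at day 2, and 35.1 and 35.3 CPM at day 4. No library overlapped between days. The log2 fold change was -0.79 for the first step (SE 0.12, edgeR adjusted p = 0.000150) and -1.04 over the course (SE 0.12, edgeR adjusted p = 1.18e-05). The second step was -0.25 and not called (SE 0.12, edgeR adjusted p = 0.126), but it was called from days 2 and 4 alone (-0.26) and without either day 0 library (-0.25 in both). The steps differed by 0.54 without passing the threshold (SE 0.20, edgeR adjusted p = 0.0648), which DESeq2 (0.58) and the fit without day 0 replicate 2 (0.67) did pass.

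Promoters were on file for 6 of the 10 genes, with 7 starts, as Ccnd3 has 2. Beyond those printed, Cdk6 has 1 E-box 220 bases before its start in the table, which lies 2889 bases downstream of the start of the counted transcript, the downstream Ccnd3 start has 1 CCAAT, and Cdk2 has 1 CCAAT. Neither Ccne1 nor the upstream Ccnd3 start matched any motif searched. The CHR letters TTTGAA, present in 16% of promoters on either strand, occurred in none of the 7. Genes with E2F matches included 1 that fell (Cdc25a) and 1 that was not called (Cdk2), and Ccne1, which fell most in the first step, had none in this window. Ccne2 and Ccna2, which also fell, had no promoter on file. A link between the matches and the changes was not tested.

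**Figure D3:**
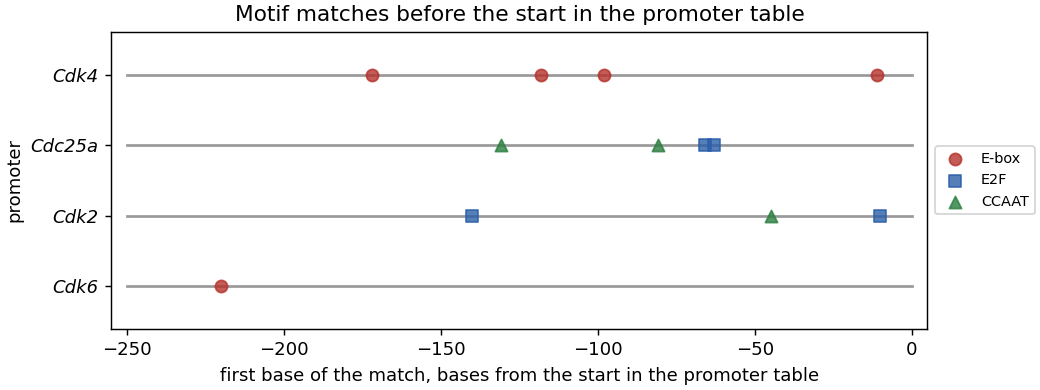
Positions of motif matches in bases from the start in the promoter table (x axis) for the 4 promoters that hold most of them (y axis), with circles for the E-box CACGTG, squares for E2F letters and triangles for CCAAT. Cdk4 holds 4 E-boxes, while Cdc25a and Cdk2 each hold 2 E2F matches.

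Side by side, the 9 genes took different courses, which the plot of changes between days shows. Libraries did not overlap in 8 of 9 genes for day 2 against day 0 (80.5% of all genes), 7 of 9 for day 4 against day 2 (74.0%) and 8 of 9 for day 4 against day 0 (84.8%). The change from the first step to the second was called for Ccnd3, Ccne1 and Cdk6, 3 of 9 beside 30.0% of all genes, and in each the second value was the higher one.

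**Figure D4:**
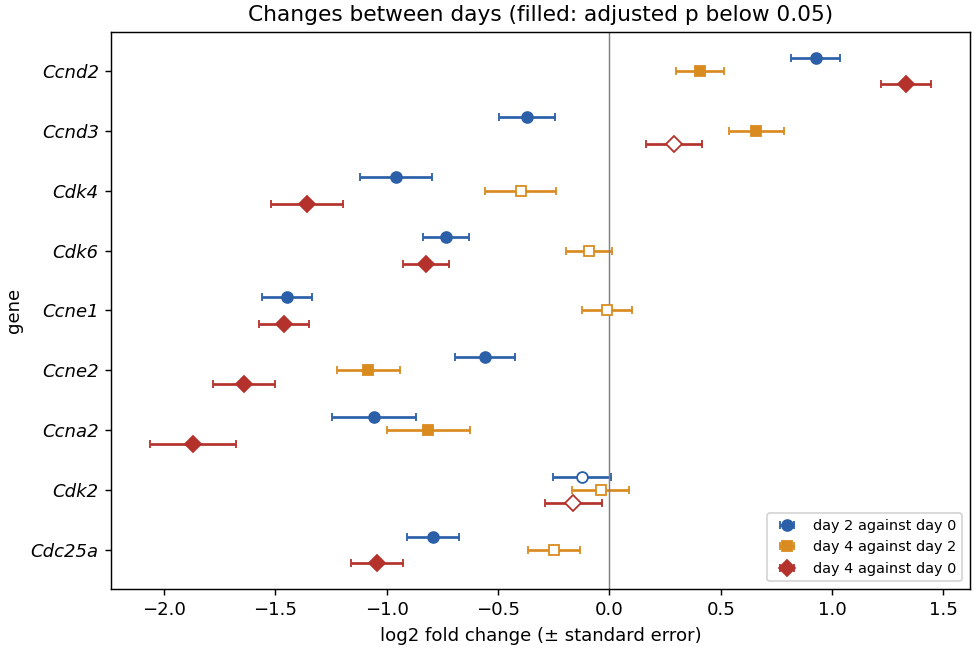
Log2 fold change (x axis) with its standard error for each of the 9 tested genes (y axis) in 3 comparisons between days, from 1 edgeR fit over 6 libraries; filled symbols have an adjusted p below 0.05. Ccnd2 lies at 1.33 for day 4 against day 0, Cdk2 near 0 in all 3, and Ccna2 lowest at -1.87.

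The order of levels per kilobase shifted between days. At day 0 it ran Cdk4 (225 to 322 CPM per kb), Ccna2 (65.2 to 107) and Ccnd3 (74.7 to 77.0), whose ranges overlapped, then Ccne1, Ccnd2, Cdk2 and Cdc25a, of which the last pair overlapped, then Ccne2 and Cdk6 (5.20 to 5.27). By day 2 Ccnd2 (54.1 to 55.0 CPM per kb) had reached the range of Ccnd3 (54.1 to 63.2) and passed Ccna2 (40.7 to 42.2). At day 4 Cdk4 (99.9 to 114 CPM per kb) and Ccnd3 (84.7 to 101) overlapped at the top, followed by Ccnd2 (70.6 to 73.9), and Ccna2 (22.5 to 24.6) overlapped Cdk2 (19.6 to 23.5). Cdk6 closed the order at day 4 too, at 2.91 to 3.01 CPM per kb.

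For each tested member the genes with the most similar course were found among 10445 others, by the root mean square difference of log2 CPM over the 6 libraries after centring each gene. Haus8, a subunit of the spindle complex augmin, was nearest to Ccna2, at 0.030, ahead of Ncl, which encodes nucleolin, at 0.056. Ccnd2 lay closest to the zinc transporter gene Slc30a9 and to Ddhd2, both at 0.041, and Ccnd3 to Usf1, which encodes an E-box binding factor, at 0.046 and to Wsb2 at 0.049. Eno2, a neuronal-type enolase, and the kinase gene Fes were nearest to Ccne1 at 0.052 and 0.058. Ercc6l, a helicase of the mitotic spindle checkpoint, and Clec2f were nearest to Ccne2, but at a wider 0.087 and 0.088. Among the kinases, Cdk4 was followed most closely by Mrpl48 (0.078) and Rad23b (0.079), Cdk6 by Snx4 (0.028) and Fubp1 (0.033), and Cdk2 by Morf4l1 (0.059) and Slc25a1 (0.062). Bckdk (0.030) and Pdhx (0.036), both tied to mitochondrial dehydrogenase complexes, were nearest to Cdc25a. These distances rest on 6 libraries and are a description with no test.

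Other cell cycle genes were followed in 7 lists, also chosen with earlier results of these data known. The lists hold 77 genes, of which 75 were tested. Over the course 46 fell and 18 rose (64 of 75, beside 71.8% of all genes), with a median log2 fold change of -0.57. In the first step 37 fell and 18 rose (31.5% and 31.0% of all genes), or 28 and 23 with scaling by total counts. In the second 36 fell and 4 rose (16.2% and 14.0% of all genes). The median over the lists was -0.30 in the first step and -0.32 in the second.

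Genes that license and copy DNA fell. All 16 S phase entry genes were lower at day 4 than at day 0 and than at day 2. At day 2, 15 of 16 were lower than at day 0. Of all genes, 36.4% fell over the course, 31.5% in the first step and 16.2% in the second. The median log2 fold change of the S phase entry genes was -1.69 over the course. Tk1, the thymidine kinase of the nucleotide salvage pathway, had 27.7 and 49.6 CPM at day 0, 5.51 and 5.09 CPM at day 2, and 2.13 and 2.65 CPM at day 4, a log2 fold change of -4.01 (SE 0.27, edgeR adjusted p = 2.78e-07). The 8 G2 and M phase genes all fell over the course as well, with a median of -1.38, among them Ccnb1, the mitotic cyclin B1, at -1.50 (SE 0.17, edgeR adjusted p = 1.11e-05).

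Of 7 CDK inhibitors, 4 fell and 2 rose over the course, 6 of 7 beside 71.8% of all genes, with a median of -0.51. Cdkn2b (p15), an inhibitor of Cdk4 and Cdk6, had 1.23 and 1.03 CPM at day 0, 1.22 and 1.89 CPM at day 2, and 4.57 and 4.57 CPM at day 4, so that its rise of 2.02 on the log2 scale (SE 0.24, edgeR adjusted p = 1.91e-05) came from a low level. Cdkn1a (p21), which inhibits Cdk2 complexes, moved the other way, from 21.3 and 33.1 CPM at day 0 to 6.07 and 8.11 CPM at day 4, a log2 fold change of -1.93 (SE 0.22, edgeR adjusted p = 1.13e-05).

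Among 13 genes of the retinoblastoma and E2F families 6 fell and 4 rose over the course, 10 of 13 beside 71.8% of all genes. The repressor E2f8 fell by 1.66 on the log2 scale, from 65.4 and 59.6 CPM at day 0 to 20.3 and 19.3 CPM at day 4. Tfdp2, a dimer partner of E2F proteins, rose from 24.8 CPM in both day 0 libraries to 64.8 and 72.2 CPM at day 4, a log2 fold change of 1.47 (SE 0.11, edgeR adjusted p = 6.60e-07).

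Of 9 genes for enzymes or subunits that act on CDKs, 6 fell (36.4% of all genes) and 1 rose (35.5%) over the course. The one that rose was Cdc25b, a phosphatase of the same family as Cdc25a, with 41.4 and 33.2 CPM at day 0, 119 and 139 CPM at day 2, and 160 and 143 CPM at day 4. Its log2 fold change over the course was 2.02 (SE 0.14, edgeR adjusted p = 3.15e-07), where that of Cdc25a was -1.04. Cks1b, a small CDK subunit, had the largest fall of this list, at -1.81 (SE 0.13, edgeR adjusted p = 5.64e-07).

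Genes for the turnover of cyclins and inhibitors showed 5 falls and 3 rises in 10 over the course, 8 of 10 beside 71.8% of all genes. Skp2, the F-box protein that marks p27 for degradation, went from 89.5 and 99.5 CPM at day 0 to 33.5 and 28.4 CPM at day 4, a log2 fold change of -1.61. Fbxo4, an F-box protein linked to cyclin D1 turnover, rose by 1.32 from 3.19 and 2.44 CPM.

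Of 12 tested relatives, cyclins and kinases mostly with roles outside the cycle, 8 were higher (35.5% of all genes) and 1 lower (36.4%) at day 4 than at day 0, with a median of 0.50, and Ccna1 and Cdk14 did not pass the filter. Ccni, an atypical cyclin, had 38.2 and 39.9 CPM at day 0 and 94.2 and 105 CPM at day 4, a log2 fold change of 1.35 (SE 0.11, edgeR adjusted p = 8.22e-07), and Cdk8, a kinase of the Mediator complex, was the one that fell, at -0.45.

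**Figure D5:**
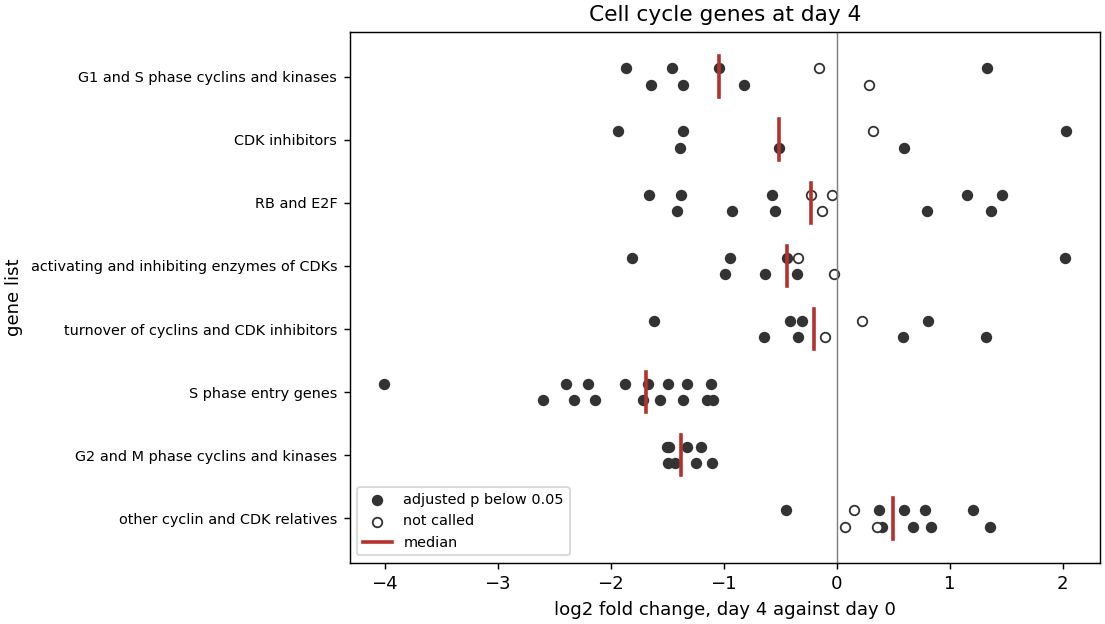
Log2 fold change for day 4 against day 0 (x axis) of each tested gene in the 8 gene groups (y axis), filled where the edgeR adjusted p is below 0.05, with the median of each group as a red line. All S phase entry and G2 and M phase genes lie below 0, and 11 of the 12 other cyclin and CDK relatives lie above it.

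Some limits on the counts apply to single members. Between 16.7% and 31.2% of the exon bases of Ccnd3, Ccne2, Ccna2 and Cdk4 overlap a gene on the opposite strand. From day 0 to day 4 these neighbours changed on the log2 scale by -1.52 (Bysl, opposite Ccnd3, with -1.39 in the first step), 0.30 (Ints8, opposite Ccne2), -0.59 (Exosc9, opposite Ccna2) and 0.80 (Tspan31, opposite Cdk4), and their part in the changes of the members was not tested. In 17 transcripts nested in a well-counted transcript of the other strand, the count density was a median 1.71% of that of the outer transcript. It was under 10% in 11 and highest for Pdcd2 (1431%), Echdc1 (109%) and Il4i1 (77.1%). Some of the low ones are microRNA entries with overlaps of only 61 to 131 bases, which say little about strand. Low density in most pairs is what counting by strand would give, but the strand setting is not given. A processed pseudogene, Ccnd3-ps, shares 10.4% of the 40-base words of Ccnd3. The other counted transcripts of Ccnd3, Ccne2 and Cdk2 had 97.5% to 99.9% of the counts of the one used and are not separate measurements.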

How the data were processed

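Poly(A)-selected, strand-specific mRNA-seq libraries were made from MEL cells at days 0, 2 and 4 of DMSO. The authors deposited raw read counts per RefSeq transcript for each library, with no normalization and no pooling. The labels name cutadapt, TopHat with mm10, HTSeq and DESeq2, without versions. The annotation release and the strand setting of the counting are not given in the sources used here. Reads on no feature, 50.5% to 58.4% of the sum of these reads and the transcript counts (in which a read can count for several transcripts), were left out of totals and tests.

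Symbols came from RefSeq for 32199 of 32654 transcripts and from GENCODE for 187, and 268 had none. Counts were tested in R 4.3.3 with edgeR 4.0.16 (TMM, filterByExpr by day, 18351 transcripts kept, 1 quasi-likelihood fit over 6 libraries with a mean per day, Benjamini-Hochberg adjusted p below 0.05). Gene counts use 1 transcript for each of 12381 tested genes. CPM use TMM-scaled totals, CPM per kb also the transcript length, and floors of 3 counts cover counting error only. The fit was tested on simulated data.

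All 10 members are named, with the largest called rise and fall for day 4 against day 0 in each list and the 2 nearest genes of each member whose log2 CPM averaged 1 or more. The members and lists were chosen with earlier results of these data known. Alternatives were DESeq2 1.42.0, other scalings, no filter, no globin transcripts, 2 days alone, the replicate block and a log2 limit of 1. Others were 1 transcript per gene, the other counted transcripts of a member and leaving out each library.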

Additional observations from a re-analysis of the deposited data

Results flagged for a closer look

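For 3 of 9 tested members the change from day 2 to day 4 differed from that between day 0 and day 2 (edgeR test). That test called 30.0% of all genes. The second step was higher than the first by 1.03 on the log2 scale for Ccnd3, by 1.44 for Ccne1 and by 0.64 for Cdk6, with 2 libraries per day behind each. The call for Ccnd3 was lost without day 2 replicate 1 (0.81). For Cdk6 it was lost with total counts (0.36) and without any 1 of the day 2 or day 4 libraries (0.58 to 0.69). Reads on no feature, which no comparison used, made up at least 58.1% of the sum of these reads and the transcript counts in the day 4 libraries and 50.5% and 54.1% in the uninduced ones. What those reads are was not tested.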

How the results depend on the processing

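Of 515 values of single members under the alternatives, 463 kept their direction and their side of the threshold. The 515 include the other counted transcripts of Ccnd3, Ccne2 and Cdk2, which are not separate measurements. In 10 the direction turned, all of them for values that were not called. With total counts the log2 fold change of Cdk2 for day 2 against day 0 was 0.074, and the second step minus the first was -0.040 for Ccna2 and -0.20 for Cdk2. Leaving out 1 library at a time gave -0.26 to 0.022 for Cdk2 from day 0 to day 2, -0.097 to 0.061 for Ccne1 and -0.18 to 0.083 for Cdk2 from day 2 to day 4, and -0.15 to 0.55 for Ccna2 and -0.065 to 0.22 for Cdk2 for the difference of the steps. There the lone library of a day is assumed to vary like the others. For day 4 against day 2 the members called then numbered 1 to 6, fewest without day 2 replicate 1 (1), and the other cell cycle genes called 22 to 52, fewest without day 2 replicate 1 (22) and replicate 2 (25). A required log2 fold change of 1 left 2 members called for the first step and 1 for the second. Without division by length the Ccnd3 share was 46.9%, 26.4% and 29.9% on days 0, 2 and 4. The cause of these shifts was not tested.

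The replicate differences correlated by only 0.032, 0.045 and 0.079 between days across 18351 transcripts. These values show little effect shared by replicate number but cannot show that the cultures were unpaired. With the replicate block 8, 4 and 8 members were called in the 3 comparisons, where 8, 4 and 7 were called without it. The block added Ccnd3 for day 4 against day 0 (log2 fold change 0.28) and changed no other call of a member.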
